A study of Mus musculus with 18 samples.

Results

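CpG island shores were defined here by position alone, as sparse windows of the genome that lie beside a CpG-dense one. The genome was divided into fixed tiles of 1 kb, and a tile was a shore when it was autosomal, held under 15 CpGs, and started within 2 kb of the start of a tile with 30 or more CpGs. Of 33545 tiles tested, 32195 were autosomal and 1314 of these (4.08%) were shores. They were set against 15752 distant tiles, which also held under 15 CpGs but lay farther than 2 kb from any dense tile, and against 6429 dense autosomal tiles. No methylation value entered the choice. The CpG number of a tile counts only CpGs that were read, and no annotation of islands was used, so the tiles stand in for islands and shores rather than tracing their edges.

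CpG islands are stretches of CpG-rich DNA that often hold promoters and are mostly unmethylated in mammalian cells. The bulk of the genome is CpG-poor and largely methylated, and shores are the zone where the one state gives way to the other. Methylation at shores is known to differ between tissues and to be altered during reprogramming, often while the neighbouring island stays unmethylated. Female mouse ESC with both X chromosomes active are known to carry less methylation across the genome than male ESC.

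Methylation was measured in genomic DNA of 18 mouse samples by reduced representation bisulfite sequencing, in which restriction digestion and size selection favour CpG-rich fragments and bisulfite converts unmethylated cytosines. The series concerns X chromosome reactivation on the way to pluripotency. There were 7 groups. Embryonic stem cells (ESC) came from both sexes, with 4 female and 2 male samples, as did mouse embryonic fibroblasts (MEF), again with 4 female and 2 male samples. The other groups were female and had 2 samples each, namely induced pluripotent stem cells (iPSC), SSEA1+ cells and SSEA1- cells. SSEA1 is a surface antigen of mouse pluripotent cells, and the SSEA1+ and SSEA1- cells are intermediates of reprogramming. The labels give no strain, age, line, passage, factor delivery or day, nor whether replicates are separate cultures or separate animals, and the spread behind every p-value here may thus be technical. Labelled cell types could not be checked against marker genes in these data.

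Reads over CpGs ranged from 11424460 to 62920167 per library. The median shore tile held 147 reads per sample, with sample medians of 68 to 368 and a lowest value of 15, while the median distant tile held 116. At 147 reads, a level of 49.7% has a 95% Wilson interval of 41.7 to 57.65%, and at 15 reads a level of 46.7% has one of 24.8 to 69.9%. These cover counting error only, since reads without molecular identifiers are not independent molecules. The share of CpGs seen from both strands, a technical feature, split the libraries into types A (9.03 to 11.7%), B (15.25 to 16.05%) and C (7.25 to 7.46%). Type A comprised the ESC libraries, female MEF 1 and male MEF 2, type B the SSEA1+ and SSEA1- libraries, female MEF 2 and male MEF 1, and type C the iPSC libraries and female MEF 3 and 4. Female MEF 3 and 4, with a mean chi-square per CpG of 1.05, and iPSC 1 and 2, with 1.08, differed by nearly as little as sampling alone gives (1 is expected), against at least 1.41 in all other replicate pairs. They are counted as separate samples here, so the sample numbers of both groups may be too high, and calls with each pair taken as 1 sample are given with the alternatives.

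Shores were much less methylated than distant tiles in all 18 samples, and female ESC had the lowest mean shore level of the 7 groups. The level of a sample is the mean over tiles of the percentage of methylated reads. It was 9.84, 9.60, 9.81 and 9.91% in female ESC and 15.7 and 16.3% in male ESC. In iPSC it was 15.9 and 15.55%, in SSEA1+ cells 17.1 and 15.8%, and in SSEA1- cells 18.1 and 17.7%. Female MEF stood at 18.85, 18.1, 20.6 and 20.5%, and male MEF at 20.2 and 21.5%. The 4 female ESC samples lay below all others, whereas iPSC, male ESC and SSEA1+ samples covered overlapping or adjoining ranges.

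Group means of the shore level, from low to high, were 9.79% ± 0.134 (SD, n = 4) in female ESC, 15.7% ± 0.262 (n = 2) in iPSC, 15.97% ± 0.404 (n = 2) in male ESC, 16.45% ± 0.949 (n = 2) in SSEA1+, 17.9% ± 0.305 (n = 2) in SSEA1-, 19.5% ± 1.24 (n = 4) in female MEF and 20.9% ± 0.928 (n = 2) in male MEF. Neighbours in this order from iPSC to SSEA1+, and female with male MEF, did not differ beyond their spread. Distant tiles had another order. Their level was 37.1 to 38.03% in female ESC, 48.2 and 49.5% in iPSC, and 57.8 and 58.5% in male ESC. SSEA1+ cells stood at 56.4 and 58.9%, SSEA1- cells at 59.0 and 59.3%, female MEF at 59.4 to 61.8% and male MEF at 63.1 and 63.3%. Thus iPSC and male ESC had nearly the same mean shore level but stood apart at distant tiles. Within classes of level their shores differed too, as given with that comparison.

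**Figure D1:**
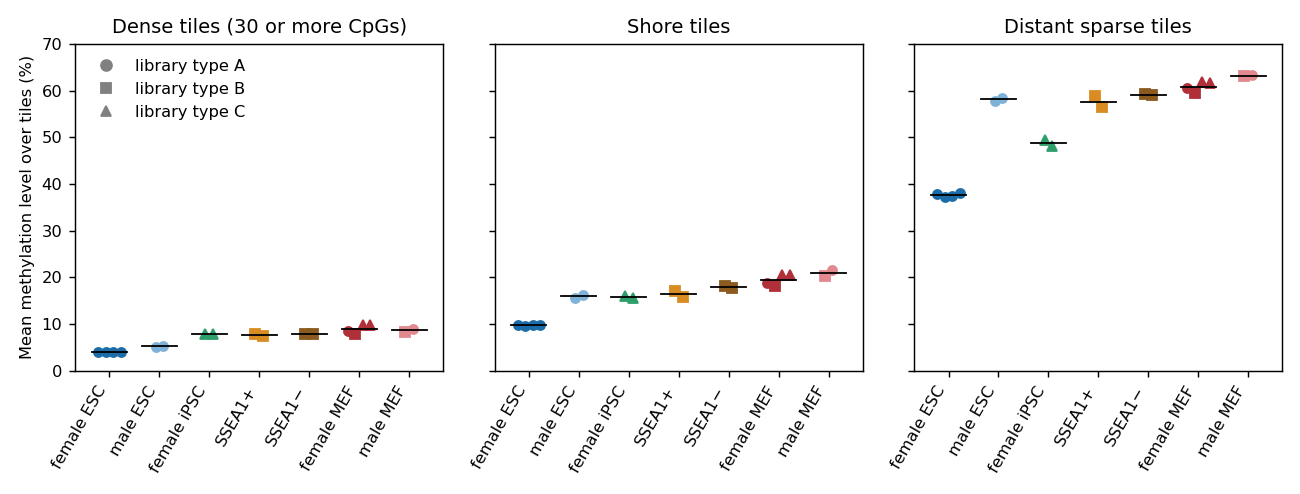
Mean methylation level of each sample, in percent, at shore tiles and at distant and dense autosomal tiles, 1 point per sample with its shape giving the library type, and a line at each group mean. Female ESC samples sit lowest at shores (9.60 to 9.91%) and at distant tiles (37.1 to 38.03%), and shores lie between dense and distant tiles in every sample.

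The shore mean joins many unmethylated tiles and a smaller number of methylated ones. Sample medians over shore tiles averaged 1.40% in SSEA1-, 1.61% in SSEA1+, 2.65% in female ESC and 3.24% in female MEF. They averaged 3.68% in male MEF, 4.01% in male ESC and 7.68% in iPSC, so female ESC were not lowest by the median. Of 1314 shores, 636 (48.4%) had a group mean under 10% in all 7 groups, against 1863 of the 15752 distant tiles (11.8%). By group, shores under 10% numbered 954 in female ESC, 827 in male ESC, 766 in iPSC, 909 in SSEA1+, 884 in SSEA1-, 854 in female MEF and 816 in male MEF. At the other end, shores of 80% or more numbered 0 in female ESC, 28 in male ESC and 2 in iPSC, against 120, 139, 145 and 158 in SSEA1+, SSEA1-, female MEF and male MEF. Highly methylated shores were therefore seen mainly in fibroblasts and intermediates, and few were found in the pluripotent groups, most of them in male ESC. Distant tiles of 80% or more made up 0.749% of their class in female ESC, 9.65% in iPSC and 38.2% in male ESC. In the other groups they made up 39.2 to 51.3%. Female ESC and iPSC thus had few such tiles in both classes, while in male ESC 2.13% of shores stood that high.

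The iPSC libraries also had a higher floor. The 636 shores under 10% in all groups stood at 4.52% ± 0.116 (SD, n = 2) in iPSC and at 0.714 to 1.45% in the other groups. Unmethylated dense tiles showed the same contrast, as given with the dense neighbours of shores, and its part in iPSC results was not tested. An iPSC mean therefore adds a raised floor at low tiles to the values at methylated tiles, and both are given apart in the iPSC comparisons.

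Methylation climbed with distance from the dense tile in every group. The 1114 shores that started 1 kb from a dense tile stood at 8.39% in female ESC, 13.02% in male ESC, 13.8% in iPSC, 14.5% in SSEA1+, 15.6% in SSEA1-, 17.0% in female MEF and 17.9% in male MEF. The 200 shores at 2 kb stood at 17.6, 32.4, 26.7, 27.6, 30.5, 33.2 and 37.2%, in the same order of groups. Sparse tiles 3 to 5 kb away (507) stood at 24.2% in female ESC, 44.3% in male ESC and 45.7% in female MEF, and those over 100 kb away (7882) at 43.1, 62.9 and 66.6%. The steepest part of the climb was thus the first few kb, and it was not complete at the outer limit of the shores.

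**Figure D2:**
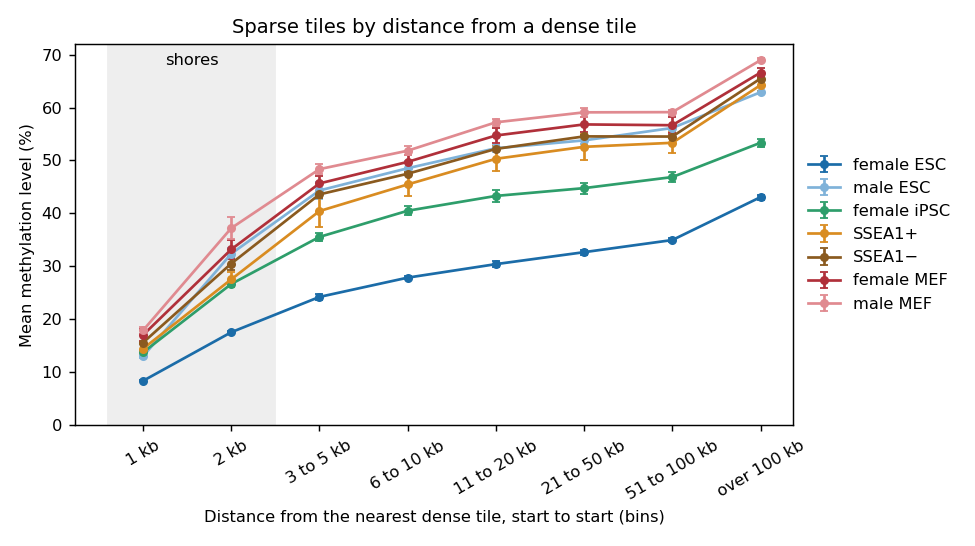
Mean methylation level (percent) of sparse tiles by distance in kb between tile starts and the nearest dense tile, 1 line per group with bars of 1 SD over samples, and shores shaded at 1 and 2 kb. Female MEF climb from 17.0% at 1 kb to 33.2% at 2 kb and 66.6% beyond 100 kb, and female ESC from 8.39 to 17.6 and 43.1%.

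Single CpGs read in every sample showed the same slope at finer scale. Outside the edge of the dense tile, the 1854 CpGs within 250 bp stood at 6.63% in female ESC, 9.10% in male ESC and 14.4% in female MEF. Between 500 and 750 bp (265 CpGs) these levels were 13.8, 24.2 and 22.6%, and between 1500 and 1750 bp (107 CpGs) 23.1, 46.8 and 41.7%. Male ESC thus lay below female MEF near the dense tile and above it in 4 of the 6 bins from 500 to 2000 bp. They lay slightly above male MEF only at 500 to 750 bp (24.2 against 24.0%) and 1250 to 1500 bp (32.6 against 32.3%). At 1750 to 2000 bp (86 CpGs), male ESC stood at 34.9%, female MEF at 43.4% and male MEF at 47%. In the bins of the dense tile itself, levels were flat at 6.35 to 7.67% in female ESC and at 14.8 to 15.2% in female MEF.

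**Figure D3:**
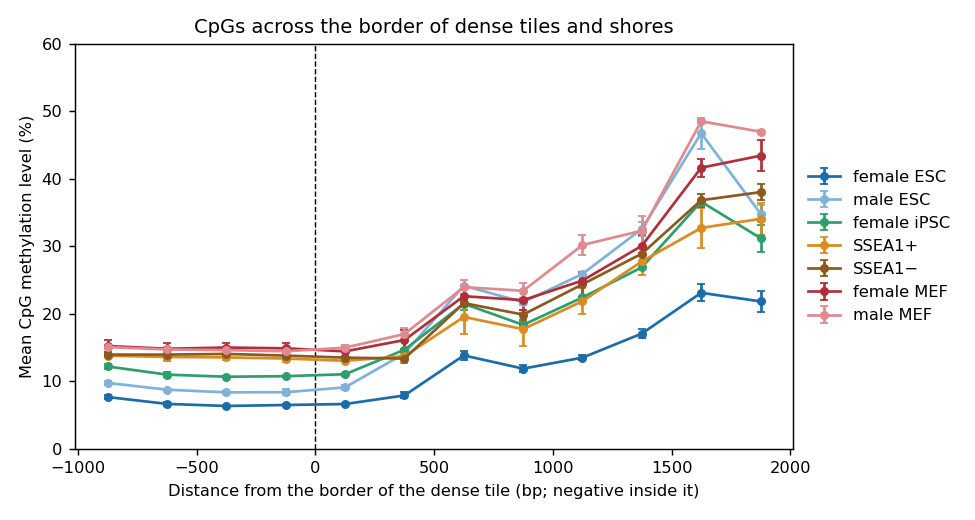
Mean methylation level (percent) of single CpGs with at least 5 reads in all samples, in bins of 250 bp, by distance in bp from the edge of the dense tile (negative inside it), 1 line per group with bars of 1 SD over samples. Levels are flat inside and up to 250 bp outside, and by 1500 to 1750 bp reach 46.8% in male ESC, 41.7% in female MEF and 48.5% in male MEF. In the last bin male ESC stand at 34.9%.

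The thresholds of the rule fell on gradual slopes. Tiles of 13 or 14 CpGs, just inside (248), stood at 6.27% in female ESC and 12.8% in female MEF, and those of 15 or 16 CpGs, just outside (270), at 8.51 and 18.2%. Sparse tiles 3 kb away (185) stood at 21.4 and 41.4%, against 17.6 and 33.2% at 2 kb. Sparse tiles next to a tile of 30 or 31 CpGs (144, inside) stood at 15.8 and 28.4%, and those next to one of 28 or 29 CpGs (155, outside) at 13.9 and 27.1%.

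Shores lay below distant tiles at like CpG number too. Shores held a median of 10 CpGs and distant tiles 8. In female MEF, shores of 3 to 5 CpGs (180) stood at 28.4% against 67.2% in distant tiles of that number, shores of 6 to 9 CpGs (459) at 22.6% against 63.0%, and shores of 10 to 14 CpGs (675) at 15.03% against 53.4%. In female ESC the matching values were 14.35 and 44.4%, 11.5 and 39.5%, and 7.425 and 30.4%. Fewer CpGs went with more methylation in both classes of tile, and shores were lower in each class of CpG number.

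Shores were graded by the level of the dense tile next to them. For the 1098 shores beside a dense tile under 5% (mean over all samples), the level was 6.66% in female ESC, 12.1% in male ESC, 12.8% in iPSC, 9.72% in SSEA1+, 10.85% in SSEA1-, 12.4% in female MEF and 13.7% in male MEF. The 1011 dense tiles beside them stood at 0.451 to 1.19% in all groups but iPSC, which had 4.32%. By the mean, these shores stood well above their dense tiles, which the grading chose for a low level, and female ESC were the lowest group. The median shore among them stood at 0.907% in SSEA1-, 1.17% in SSEA1+ and 1.88% in female ESC, and at 2.28 to 6.48% in the other groups. A minority of tiles thus carried the means, and female ESC were not lowest by the median.

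For the 113 shores beside a dense tile of 20% or more, the level was 37.9% ± 0.876 (SD, n = 4) in female ESC, 48.3% ± 0.323 (n = 2) in male ESC, 41.2% ± 1.06 (n = 2) in iPSC, and 80.8, 82.8, 84.5 and 85.7% in SSEA1+, SSEA1-, female MEF and male MEF. Their 104 dense tiles stood at 35.4, 44.6, 37.5, 81.2, 83.5, 84.9 and 85.75%. Beside these methylated dense tiles, shores stood slightly above the dense tiles in the 3 pluripotent groups and level with them or slightly below in the other groups, and both kinds of tile stood lower in the pluripotent groups.

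Tile by tile, 899 shores (68.4%) were called in none of the 11 comparisons below, against 4019 distant tiles (25.5%) and 16441 of all tiles (49.0%). The words higher and lower, for a tile, stand for a call: a difference of group means of 20 points or more together with an adjusted p under 0.05 in a quasi-binomial model fitted to all tiles. A tile with a low level has little room for such a fall, and shores hold many of these.

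**Figure D4:**
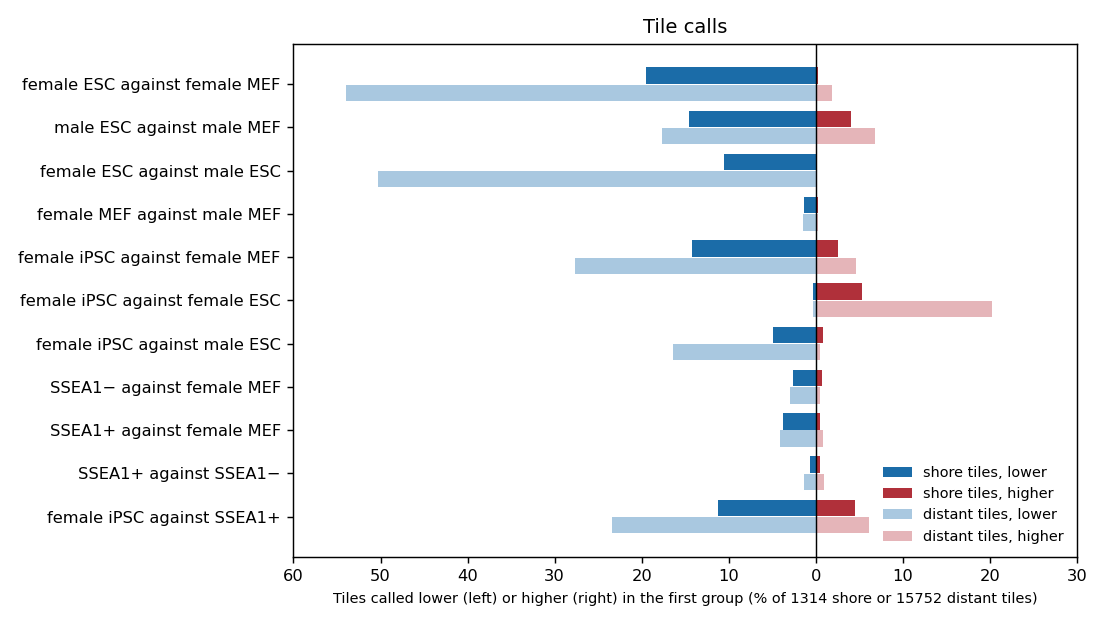
Percentage of shore tiles and of distant tiles called lower (bars to the left) and higher (bars to the right) in the first group of each of the 11 comparisons. Between female ESC and female MEF 19.6% of shores were lower against 54.0% of distant tiles, and between male ESC and male MEF 14.5% against 17.6%.

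Female ESC were compared with female MEF to ask how the pluripotent state differs from the fibroblasts. The shore level differed by -9.71 points, with all 4 ESC samples below all 4 MEF samples. A 2-sided exact permutation test gave p = 0.0286, its minimum for 4 against 4 samples, and with Benjamini-Hochberg adjustment for 11 comparisons 0.183, so it did not pass. Within library type A, where 4 ESC met 1 MEF library, the difference was -9.06 points in the shore level and 13.8 in the shore minus distant value. In this comparison 257 shores were lower and 3 higher, 19.8% of the 1314 called, against 38.4% of all tiles called in either direction (37.6% lower, 0.894% higher). The median difference was -0.84 points over shores, -22.1 over distant tiles and -9.92 over all tiles.

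Counted in points, shores differed less than distant tiles, but as a ratio they differed more. The shore minus distant value was -27.85 points in female ESC and -41.35 in female MEF, a difference of 13.5 points (exact permutation p = 0.0286, adjusted 0.147). As a ratio, the ESC level was 50.2% of the MEF level at shores and 61.9% at distant tiles. The sign turned when distant tiles were weighted to the shores' CpG number and to their level in male MEF, a group outside the comparison: the difference was then -3.40 points (exact permutation p = 0.0286, not adjusted).

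Levels in classes of the male MEF level show the same in percent. The 158 shores at 80 to 100% in male MEF stood at 86.5% ± 0.921 (SD, n = 4) in female MEF and 38.4% ± 0.762 in female ESC, and the 8083 distant tiles of that class at 86.2% ± 0.486 and 51.9% ± 0.595. For the 47 shores at 60 to 80%, the levels were 66.2 and 28.85%, against 69.8 and 42.9% at 2544 distant tiles. In both classes shores and distant tiles stood close together in female MEF, while in female ESC shores were the lower of the 2. For the 816 shores under 10%, levels were 2.39 and 2.34%, so there the groups hardly differed.

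**Figure D5:**
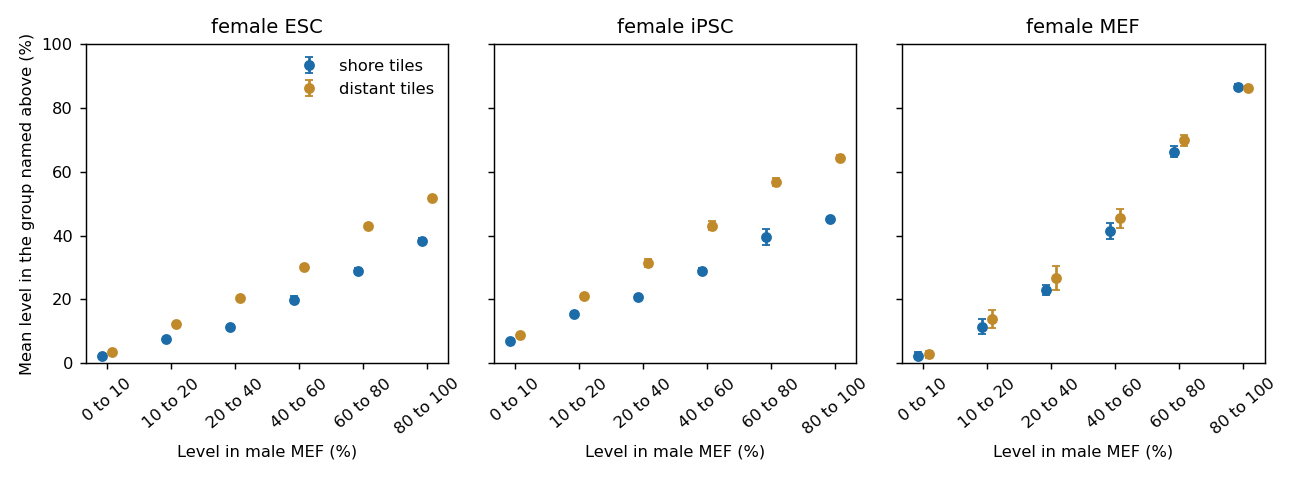
Mean methylation level (percent) of shores and distant tiles in classes of their level in male MEF (percent), with panels for female ESC, iPSC and female MEF and bars of 1 SD over samples. In female MEF the classes of 80 to 100% nearly coincide (86.5 and 86.2%), and in female ESC shores stand at 38.4% and distant tiles at 51.9%.

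A shore on chr9:72962001-72963000 (5 CpGs, build mm9) had the largest difference among named tiles. It stood at 1.41, 4.76, 9.84 and 4.88% in female ESC and at 91.1, 84.8, 87.7 and 87.8% in female MEF, a difference of -82.6 points (adjusted p = 1.88e-10). The groups did not overlap, and male ESC lay between them at 42.3 and 30.5%. The dense tile beside it, of 35 CpGs, stood at 0.446% in female ESC and 0.419% in female MEF. This shore was thus nearly fully methylated in fibroblasts and nearly unmethylated in female ESC, next to a dense tile that was low in both.

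A shore on chr12:72418001-72419000 (10 CpGs) shared its difference with its dense tile. It stood at 9.57, 8.52, 11.4 and 11.4% in female ESC and at 94.2, 95.8, 89.0 and 88.1% in female MEF (-81.55 points, adjusted p = 4.56e-12), and its dense tile at 7.115 and 91.5%. Over the 257 lower shores, the dense neighbour was under 10% in both groups for 145 (56.4%) and was itself called lower for 84 (32.7%). Among all 1314 shores, 1098 lay beside a dense tile under 5% (mean over all samples), and 7.70% of all dense tiles were called lower. By these unlike thresholds, a low neighbour was less common among the lower shores than among all. A neighbour called lower was more common than among dense tiles at large. Lower shores at 1 kb numbered 184 of 1114 and at 2 kb 73 of 200, so they were more frequent at 2 kb.

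The 3 higher shores all lay at 2 kb. The one on chr5:143574001-143575000 (8 CpGs) stood at 41.8, 46.5, 40.7 and 37.6% in female ESC and at 5.69, 6.19, 3.59 and 7.84% in female MEF (+35.8 points, adjusted p = 3.04e-10). Male ESC, at 18.2 and 22.6%, and iPSC, at 16.8 and 13.8%, lay between them, and the dense tile beside it was at most 6.92% in any group. A second, on chr1:93696001-93697000, differed by 26.1 points and was not called when library type was a term of the model.

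Male ESC and male MEF gave the same comparison with the sex held male. Shore levels were apart by -4.89 points, with an exact permutation p of 0.333, the minimum for 2 against 2 samples. Within type A, with 2 ESC and 1 MEF library, it was -5.54 points. Shores called lower numbered 191 and higher 53, 18.6% in all, against 22.7% of all tiles (18.9% lower, 3.8% higher), and the median difference was -0.14 points over shores, -1.95 over distant tiles and -0.48 over all tiles. Shores were called less often than distant tiles (24.5%) and than all tiles.

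In points, the shore minus distant value of male ESC differed from that of male MEF by 0.208 (exact permutation p = 1), and its sign depended on the processing, being -0.324 within type A. After weighting to CpG number and level, here in female MEF, it was -6.38 points (exact permutation p = 0.333). Male ESC stood at 76.6% of the male MEF level at shores and at 91.9% at distant tiles. Shores of 80% or more in male MEF stood at 54.3% in male ESC and the distant tiles of that class at 76.9%, while male MEF was at 88.6 and 89.1%; male MEF set these classes, so its own values are a description.

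The lower shores of the male comparison included chr7:30065001-30066000 (6 CpGs), at 13.2 and 6.85% in male ESC and 90.9 and 74.2% in male MEF (-72.5 points, adjusted p = 4.57e-08). Its dense tile was at most 3.83% in any group, so it resembles the chromosome 9 shore. The chromosome 12 shore was lower here too, at 19.7 and 28.3% against 99.3 and 99.5% (adjusted p = 1.34e-10). Between the female and the male comparison, which share no samples, 155 lower shores were the same, 60.3% of the 257 and 81.15% of the 191. In the female comparison, 19.6% of all shores and 54.0% of distant tiles were lower. The overlap over distant or all tiles is not given here, so that of shores is not read as particular to them.

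Higher shores numbered 53 in this comparison and 3 in the female one, a contrast that was not tested. On chr13:73400001-73401000 (12 CpGs), levels were 67.3 and 75.3% in male ESC and 5.56 and 9.77% in male MEF (+63.6 points, adjusted p = 3.43e-07). On chr9:98858001-98859000 (13 CpGs), they were 75.9 and 55.6% against 3.41 and 9.89% (+59.1 points, adjusted p = 2.35e-08). Female ESC stood at 25.7 and 17.4% at these tiles, between the male groups. Of the 53 higher shores, 49 lay beside a dense tile under 10% in both groups, and for 1 the dense tile was higher as well. Among all 1314 shores, 1098 lay beside a dense tile under 5% (mean over all samples), and 0.28% of all dense tiles were higher.

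Female and male ESC differed at shores in 1 direction. Female levels were apart from male ones by -6.18 points, with 4 female samples below both male ones, and the exact permutation p was 0.0667 (adjusted 0.183), the minimum for 4 against 2 samples. All 6 libraries were of type A. Lower in female ESC were 138 shores and higher 1, so 10.6% were called against 26.8% of all tiles (26.8% lower, 0.0358% higher). Per tile, the median difference was -1.01 points over shores, -21.1 over distant tiles and -4.56 over all tiles.

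In points shores differed less between ESC of the 2 sexes than distant tiles did, by 14.3 (exact permutation p = 0.0667, adjusted 0.147). It was 2.84 points (exact permutation p = 0.0667) when distant tiles were weighted to the shores' CpG number and to their level in female MEF. In classes of the male MEF level, female and male ESC stood at 38.4 and 54.3% at shores of 80 to 100% and at 51.9 and 76.9% at distant tiles. The 2 classes of tile thus differed between the sexes by more similar amounts at like level than in the plain means.

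Among the lower shores, chr11:116702001-116703000 (4 CpGs) stood at 20.7, 13.4, 23.8 and 32.6% in female and 68.2 and 87.8% in male ESC (-55.4 points, adjusted p = 4.89e-06). On chr2:131968001-131969000 (5 CpGs), levels were 11.4, 27.96, 27.94 and 20.4% against 76.6 and 77.6% (-55.2 points, adjusted p = 2.17e-06). Both lay 2 kb from a dense tile that stood at most at 4.16% in any group. Of the 138 lower shores, 119 (86.2%) had a dense neighbour under 10% in both groups. Of all shores, 1098 of 1314 lay beside a dense tile under 5% (mean over all samples). That is another threshold, so the 2 shares are not like for like. Lower shores at 2 kb numbered 65 of 200 and at 1 kb 73 of 1114.

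Female iPSC were compared with female MEF, since fibroblasts are a usual starting cell of reprogramming. Shore levels were apart by -3.77 points (exact permutation p = 0.0667, adjusted 0.183), and by -4.80 within type C, which held 2 samples of each group (the near-identical pairs). Its sign was not stable, because at a minimum of 10 reads per CpG, which leaves 369 shores, it was 1.07 points. The mean holds opposite parts: shores under 10% in male MEF stood at 6.81% in iPSC and 2.39% in female MEF, whereas shores of 80% or more stood at 45.1% ± 0.717 (SD, n = 2) and 86.5% ± 0.921 (n = 4). Distant tiles of these classes stood at 8.88 and 2.80%, and at 64.2 and 86.2%.

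Shores called lower in iPSC numbered 187 and higher 33, 16.7% in all, against 25.6% of all tiles (23% lower, 2.55% higher). The median difference was 2.48 points over shores, -10.5 over distant tiles and -0.96 over all tiles, the raised floor being included in each. In points the shore minus distant value differed by 8.24 (exact permutation p = 0.0667, adjusted 0.147), and by 8.11 within type C. It turned to -4.94 (exact permutation p = 0.0667) when distant tiles were weighted to CpG number and level. As a ratio, the iPSC level was 80.7% of the female MEF level at shores and 80.3% at distant tiles, the raised floor included.

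The shore on chr13:55310001-55311000 (6 CpGs) stood at 6.12 and 7.11% in iPSC and at 82.6, 89.2, 84.7 and 80.1% in female MEF (-77.5 points, adjusted p = 1.76e-08, -75.8 within type C). SSEA1+ cells stood at 62.1 and 66.7% and SSEA1- cells at 56.1 and 49.0%, between the 2 groups. Its dense tile stood at 2.52% in iPSC and 28.3% in female MEF, so here the dense tile differed as well. The chromosome 12 shore was at 21.1 and 19.6% in iPSC (-71.4 points, adjusted p = 2.25e-10). Over the 187 lower shores the dense neighbour was under 10% in both groups for 87 (46.5%) and called lower for 80 (42.8%). Among all 1314 shores, 1098 lay beside a dense tile under 5% (mean over all samples), and 7.11% of all dense tiles were called lower.

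Higher shores in iPSC included chr19:6499001-6500000 (6 CpGs), at 68.2 and 62.0% against 18.5, 24.5, 19.5 and 10.2% in female MEF (+46.9 points, adjusted p = 1.04e-04). On chr9:20972001-20973000 (7 CpGs), levels were 52.9 and 49.0% against 6.78, 3.23, 6.05 and 6.38% (+45.4 points, adjusted p = 2.09e-08). At these 2 shores male ESC had means of 71.2 and 58.75%, so they were high there too, while female ESC had 32.4 and 19.1%. The dense tiles beside these shores were at 3.84% or less in every group. Between this comparison and male ESC against male MEF, which share no samples, 24 higher shores were the same (45.3% of 53, 72.7% of 33), and 143 lower ones (74.9% of 191, 76.5% of 187).

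Female iPSC and female ESC share no library type, so no value within a type can be given. A model with library type as a term estimates the type from MEF, which hold all 3, and takes it to act alike in every group. Between them the shore level differed by 5.95 points (exact permutation p = 0.0667, adjusted 0.183) and the shore minus distant value by -5.25 points (same p, adjusted 0.147). The direction of the latter was not stable, since it was -1.20 when weighted to CpG number and level and 3.30 when levels were weighted by reads. Higher in iPSC were 69 shores and lower 4, 5.56% in all, against 11.5% of all tiles (11.2% higher, 0.247% lower). Per tile, the median difference was 3.96 points over shores, 9.92 over distant tiles and 4.31 over all tiles. Shores under 10% in male MEF stood at 6.81% in iPSC and 2.34% in female ESC. Shores of 80% or more stood at 45.1 and 38.4%. Distant tiles of these classes stood at 8.88 and 3.61%, and at 64.2 and 51.9%.

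The shore on chr17:87505001-87506000 (6 CpGs) was higher, at 55.2 and 50.9% in iPSC against 10.4, 19.5, 15.8 and 24.5% in female ESC (+35.5 points, adjusted p = 1.57e-04). It stayed called without any 1 library and with library type as a term (where leaving out a library leaves 1 sample in a group, that sample is taken to vary like the other groups), and female MEF stood at 42.3 to 56.5% there. The chromosome 5 shore was lower by 26.3 points (adjusted p = 8.80e-05) and was not called with library type as a term. With that term, 22 shores were higher and 4 lower, 1.98% in all, against 3.52% of all tiles under the same model (3.28% higher, 0.241% lower).

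Against male ESC, iPSC shore levels differed by -0.233 points (exact permutation p = 0.667), which was below the spread of either group, and the sign changed with the processing. These groups share no library type either, and with type as a term 36 shores were lower and 9 higher, 3.425% in all, against 6.74% of all tiles (6.13% lower, 0.611% higher). Called lower were 64 shores and higher 11, 5.71% in all, against 9.77% of all tiles (9.16% lower, 0.614% higher). Median differences were 2.39 points over shores, -9.10 over distant tiles and 0.31 over all tiles. The shore on chr14:76246001-76247000 (7 CpGs) stood at 8.59 and 11.3% in iPSC and 71.9 and 70.2% in male ESC (-61.1 points, adjusted p = 0.00116). Female MEF split there by type, at 62.7% in type A and 54.2% in type B but 22.0 and 21.2% in type C, and the call was lost with library type as a term.

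Intermediates stood near female MEF. In SSEA1- cells the shore level differed from female MEF by -1.62 points (exact permutation p = 0.2) and by -0.204 within type B, with 2 against 1 libraries. Lower were 34 shores and higher 9, 3.27% in all, against 2.01% of all tiles (1.7% lower, 0.31% higher) and 3.45% of distant tiles. The median difference was -0.71 points over shores, -0.72 over distant tiles and -0.58 over all tiles. With library type as a term 3 shores were lower and 4 higher, 0.533%, against 0.486% of all tiles (0.268% lower, 0.218% higher). The percentage called was 1.98 without SSEA1- 2, 1.60 without female MEF 3, 1.75 without female MEF 4 and 5.175 without female MEF 2.

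In SSEA1- cells, chr8:122754001-122755000 (12 CpGs) was higher, at 54.7 and 53.8% against 17.3, 18.5, 17.7 and 22.2% in female MEF (+35.35 points, adjusted p = 1.78e-04, +35.8 within type B). On chr1:75356001-75357000 (10 CpGs), SSEA1- cells stood at 59.5 and 59.9% against 13.4, 31.2, 21.1 and 30.8% (+35.55 points, adjusted p = 8.18e-04). Both stayed called without any 1 library and with library type as a term. A lower shore on chr7:108972001-108973000 (11 CpGs), at 29.9 and 14.2% against 45.8, 63.5, 80.9 and 84.8% (-46.7 points, adjusted p = 5.68e-04), was lost with that term.

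In SSEA1+ cells the shore level differed from female MEF by -3.05 points (exact permutation p = 0.133, adjusted 0.293) and by -1.63 within type B. Lower were 49 shores and higher 6, 4.19% in all, against 2.77% of all tiles (2.33% lower, 0.441% higher) and 4.91% of distant tiles. Per tile, the median difference was -0.80 points over shores, -1.43 over distant tiles and -0.75 over all tiles. With library type as a term 10 shores were lower and 13 higher, 1.75%, against 1.26% of all tiles (0.695% lower, 0.569% higher). The percentage also moved with single libraries: without SSEA1+ 1 it was 1.22%, without SSEA1+ 2 2.51%, without female MEF 3 2.51% and without female MEF 4 2.435%.

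The shore on chr14:55052001-55053000 (13 CpGs) was the most deeply read of the tiles named for a comparison, with 241 to 2199 reads per sample. It stood at 20.2 and 9.13% in SSEA1+ cells and at 64.6, 40.6, 71.5 and 72.4% in female MEF (-47.6 points, adjusted p = 9.55e-04, -26.0 within type B). In SSEA1- cells it was at 36.3 and 22.1%, and in iPSC at 3.77 and 2.74%, the lowest of all groups. The dense tile next to it (30 CpGs) stood at most at 5.11% in any group. On the other side of the dense tile, the shore at chr14:55050001-55051000 (7 CpGs) was at most at 2.58%, so the shores of 1 dense tile differed. A distant tile 7 kb on, at chr14:55058001-55059000, stood at 80.1% in female MEF, 84.3% in SSEA1+ cells, 83.65% in male ESC, 33.0% in female ESC and 33.7% in iPSC.

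SSEA1+ and SSEA1- cells, all of type B, differed at few shores. Their shore levels were apart by -1.43 points (exact permutation p = 0.333), and the shore minus distant value by 0.0685, with a sign that turned on processing. Lower were 9 shores and higher 6, 1.14% in all, against 1.31% of all tiles (0.796% lower, 0.516% higher). The median difference was 0 points over shores, -0.45 over distant tiles and -0.04 over all tiles. Without SSEA1+ 1, 0.533% of shores were called.

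On chr16:18585001-18586000 (7 CpGs), levels were 26.4 and 20% in SSEA1+ and 64.4 and 79.7% in SSEA1- cells (-48.85 points, adjusted p = 0.00166). On chr3:121427001-121428000 (6 CpGs), they were 42.4 and 55.9% against 0 and 1.72% (+48.3 points, adjusted p = 3.57e-04). Female MEF stood at 47.6 to 71.95% at the first and at 10 to 22.3% at the second, so SSEA1+ cells lay below the MEF range at the first and above it at the second, while SSEA1- cells lay below it at the second.

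Against SSEA1+ cells, iPSC again share no library type. The shore level differed by -0.717 points (exact permutation p = 0.667), with a sign that changed at 10 reads and by read weighting. Lower in iPSC were 148 shores and higher 59, 15.8% in all, against 23.8% of all tiles (20.1% lower, 3.69% higher). Per tile, the median difference was 3.41 points over shores, -7.59 over distant tiles and 1.47 over all tiles. Shores under 10% in male MEF stood at 6.81% in iPSC and 1.69% in SSEA1+ cells. Shores of 80% or more stood at 45.1 and 80.6%. Distant tiles of these classes stood at 8.88 and 2.24%, and at 64.2 and 82.7%. With library type as a term 142 shores were lower and 27 higher, 12.9% in all, against 20% of all tiles (18.5% lower, 1.44% higher). The shore minus distant value differed by 8.10 points, and by -3.46 after weighting to CpG number and level.

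The lower shores on chr10:13612001-13613000 (6 CpGs) and chr3:43362001-43363000 (11 CpGs) stood at 16.4 and 22.5%, and 30.3 and 16.7%, in iPSC. In SSEA1+ cells they stood at 82.0 and 96.3%, and 88.9 and 95.5% (adjusted p = 3.33e-06 and 1.38e-08), and both were also called with library type as a term. Their dense tiles moved alike, at 20.97 and 21.4% in iPSC and 79.9 and 78.5% in SSEA1+ cells. Of 148 lower shores, 77 (52.0%) had a dense neighbour that was called lower too, against 6.67% of all dense tiles called lower.

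Between the sexes of MEF, shores differed little. The shore level of female MEF differed from that of male MEF by -1.35 points (exact permutation p = 0.267), and by -2.66 within type A and -2.11 within type B, each with 1 against 1 library. Lower were 18 shores and higher 3, 1.60% in all, against 1.69% of all tiles (0.882% lower, 0.808% higher) and 1.75% of distant tiles. All tiles include the X chromosome, which held 226 of the 271 tiles called higher and 4 of the 296 called lower. Among autosomal tiles, 1.37% of shores were lower and 0.228% higher, against 1.53 and 0.216% of distant tiles. The median difference was 0.03 points over shores, -1.44 over distant tiles and -0.08 over all tiles. On chr12:105713001-105714000 (5 CpGs), levels were 17.4, 25.3, 14.4 and 14.8% in female and 40.8 and 69.5% in male MEF (-37.2 points, adjusted p = 0.00904), which came to -52.1 points in type A and -15.5 in type B. The percentage of shores called was 0.989 without female MEF 3, 0.913 without female MEF 4 and 3.20 without male MEF 2.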

How the data were processed

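Each deposited table lists CpGs by strand with 2 counts, of methylated reads and of total reads. Its score, which the authors derived from these, was not used. Positions, counted here from 1, are on mm9 per the submitters' processing notes. Which aligner, methylation caller and filters were used is not given in the sources used here.

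Counts of both strands were added. Tiles of 1000 bp were kept with at least 3 CpGs of 5 or more reads in every sample, and CpG number counts CpGs with 5 or more reads in at least 1 sample. The members and lists were chosen with earlier results of these data known. Methylated and total reads per tile of all 18 samples entered a quasi-binomial logistic model in which each of 7 groups had a mean, its dispersion moderated across tiles as in limma and set to at least 1, with F tests and Benjamini-Hochberg adjustment over all tiles of autosomes and X. Every adjusted p of a tile in the text comes from that model, which was tested on simulated data. For values with 1 number per sample, exact permutation tests (2-sided) were used and adjusted over 11 comparisons. Named tiles were taken per comparison as the called shores, 2 per direction, that differed most and whose samples did not overlap between groups, at most 1 in 100 kb, plus 3 dense tiles with shores on both sides and a distant tile near. Of 42 such entries, 15 were lost without some 1 library, and 15 with library type as a term. Most are given in the text, and chromosome 18 was left out.

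Alternatives were a minimum of 10 or 3 reads, 20 CpGs for dense tiles, shores at 1 kb only, CpGs read in all samples, reads capped at 50 per CpG, read-weighted levels, other distant tiles, weighting of distant tiles to CpG number and to 10-point level classes, library type (a term, or within types), a replicate block, limma on log2 ratios with a prior count of 1, and leaving out each sample. Counting near-identical pairs as 1 sample was chosen after seeing the data. Same-numbered samples were not treated as pairs in the main tests. Genes, promoters and sequences on mm9 were not analysed here. Tools were R 4.3.3 with limma 3.58.1, and Python 3.11.15 with scipy 1.17.1, pandas 2.3.3 and numpy 2.4.6.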

Additional observations from a re-analysis of the deposited data

Results flagged for a closer look

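The shore minus distant value differed between the sexes by another amount in ESC than in MEF. Female minus male, it was 14.3 points in ESC and 1.01 points in MEF, a difference of 13.3 points (13.28 before rounding). Permuting the sex labels within each cell type gave an exact permutation p of 0.0667 over 225 relabellings, and permuting the cell labels within each sex gave 0.0190 over 420. Neither tests the difference alone, since each also responds to the effect within a group. For the shore level itself the values were -6.18 and -1.35 points, a difference of -4.83, with exact permutation p of 0.0667 and 0.333. With distant tiles weighted to CpG number and level, the shore minus distant value differed between the sexes by 2.84 points in ESC and -0.0180 in MEF. All ESC libraries were of type A, whereas MEF were of mixed types.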

How the results depend on the processing

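Depth limits the number of shores that can be read. At 10 reads 369 shores remain, and with only CpGs read in all samples 395. Among results named below by their groups, the shore level, the shore minus distant value (in points) and the percentage of shores called are meant. Except for library type as a term, the share of all tiles called under an alternative is not given. A moved percentage is thus not read as particular to shores.

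At 10 reads, the shore level turned to 1.07 (iPSC against female MEF), 1.65 (iPSC against male ESC) and 3.75 points (iPSC against SSEA1+), and the shore minus distant value of male ESC against male MEF to -0.40. The percentage called was then 10.57 (female ESC against female MEF), 12.2 (male ESC against male MEF), 5.42 (female against male ESC), 9.21 (iPSC against female MEF) and 8.40 (iPSC against SSEA1+). The shore minus distant value of male ESC against male MEF was -0.445 at 3 reads, -1.565 with dense tiles of 20 CpGs and -0.324 within type A. For shores at 1 kb only, the shore level of iPSC against male ESC was 0.752, and 6.55% (female against male ESC) and 3.68% (iPSC against female ESC) were called. With CpGs read in all samples, the shore minus distant value was -3.37 (male ESC against male MEF), -0.582 (SSEA1- against female MEF) and -0.321 (SSEA1+ against female MEF), and 0.7595% (female against male MEF), 1.77% (SSEA1- against female MEF) and 0.7595% (SSEA1+ against SSEA1-) were called. Weighted by reads, the shore level was 0.401 (iPSC against male ESC) and 0.962 (iPSC against SSEA1+), and the shore minus distant value of iPSC against female ESC 3.30.

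With distant tiles beyond 10 kb, SSEA1+ against SSEA1- gave -0.0151 for shore minus distant. Weighting distant tiles to CpG number gave -0.00192 (SSEA1- against female MEF), -0.008965 (SSEA1+ against female MEF) and -0.00704 (SSEA1+ against SSEA1-), all near 0. Weighting to CpG number and level gave -3.40 (female ESC against female MEF), -6.38 (male ESC against male MEF), -0.0180 (female against male MEF), -4.94 (iPSC against female MEF), -1.48 (SSEA1+ against female MEF), -1.64 (SSEA1+ against SSEA1-) and -3.46 (iPSC against SSEA1+). This weighting compares tiles of like level by construction. The causes of the other changes were not tested.

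With library type as a term, 1.98% (iPSC against female ESC), 3.425% (iPSC against male ESC), 0.533% (SSEA1- against female MEF), 1.75% (SSEA1+ against female MEF) and 2.435% (SSEA1+ against SSEA1-) were called. Of all tiles, that model called 3.52, 6.74, 0.486, 1.26 and 2.10%, in the same order. Limma called 0.228% (female against male MEF), 3.12% (iPSC against male ESC) and 0.913% (SSEA1- against female MEF). Near-identical pairs as 1 sample, chosen after seeing the data, gave 0.989% (female against male MEF), 1.98% (SSEA1- against female MEF) and 2.59% (SSEA1+ against female MEF). A replicate block gave 0.533% (female against male MEF), 12.25% (iPSC against female ESC), 0.609% (SSEA1- against female MEF) and 1.37% (SSEA1+ against female MEF). Same-numbered samples had correlations of -0.27 to 0.046 in their deviations and other pairs -0.209 to 0.27, so the numbers gave no sign of pairing. In a group of 2 the deviations mirror each other, so these correlations cannot exclude it.

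A group left with 1 sample when a library is left out is taken to vary like the other groups. Without 1 library at a time, the shore level of iPSC against male ESC ran from -0.518 to 0.0530 (without male ESC 2). Shore minus distant ran from -0.324 (without male MEF 1) to 0.740 for male ESC against male MEF, from -0.0251 (without female MEF 1) to 0.131 for SSEA1- and from -0.411 (without SSEA1+ 2) to 0.687 for SSEA1+ against female MEF, and from -0.4805 (without SSEA1+ 2) to 0.6175 for SSEA1+ against SSEA1-. The percentage called ran from 0.913 (without female MEF 4; 0.989 without 3) to 3.20 (without male MEF 2) for female against male MEF, from 1.60 (without female MEF 3; 1.75 without 4 and 1.98 without SSEA1- 2) to 5.175 (without female MEF 2) for SSEA1- and from 1.22 (without SSEA1+ 1) to 5.56 for SSEA1+ against female MEF, where leaving out SSEA1+ 2 or female MEF 3 gave 2.51 and female MEF 4 2.435, and from 0.533 (without SSEA1+ 1) to 1.67 for SSEA1+ against SSEA1-. Leaving out single libraries turned no other of these results and moved no other percentage by over 1.5 times, and capping reads at 50 per CpG turned or moved none.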

Other observations

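Shores of the X chromosome were not among the members. The 26 X tiles that meet the same rule stood at 50.4% ± 1.68 (SD, n = 4) in female MEF and 39.5% ± 0.328 (n = 2) in male MEF, with sample values of 49.5, 48.5, 52.1 and 51.5% against 39.3 and 39.7%, so that the sexes did not overlap. They stood at 48.65% in SSEA1+ and 48.9% in SSEA1- cells, near female MEF, and at 19.2% ± 1.47 in female ESC, 25.2% in male ESC and 22.8% in iPSC. In female and male MEF, the 701 distant X tiles stood at 75.3 and 73.6% and the 148 dense X tiles at 44.9 and 31.6%, so the sexes were closer at distant tiles and farther apart at dense tiles than at X shores. By the quasi-binomial model, 9 of the 26 (34.6%) were higher in female than in male MEF, against 9.84% of distant X tiles, 46.6% of dense X tiles, 16.7% of all X tiles and 0.808% of all tiles. In female ESC 18 (69.2%) were lower than in female MEF, against 72.7% of all X tiles and 37.6% of all tiles. In iPSC 15 (57.7%) were lower than in female MEF, against 53.2% of all X tiles and 23% of all tiles.

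Chromosomes differed in their mean autosomal shore level. In female MEF it ran from 14.1% on chromosome 1 (78 shores) to 32.7% on chromosome 16, which had the fewest shores (32). The median shore stood closer on these 2, at 3.08 and 4.33%, and ran from 1.46% on chromosome 14 to 12.8% on chromosome 4.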
